A study of Mus musculus with 65 samples.

Results

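Plxna4, Nrp1, L1cam, Cntn2, Robo1, Robo2 and Dcc encode receptors and adhesion molecules of the axon surface, and all 7 are rows of the deposited count table of 11971 genes. They were taken by name, and each was read in every one of 65 single cells as CPM, that is, reads of the gene for every 1000000 reads of that cell. The donors were C57BL/6J mouse embryos at E13.5 and the tissue their cortex, with no genetic alteration or treatment named. Ganglionic eminences had been cut away, the embryos were pooled, and live cells that excluded propidium iodide were sorted one by one. The labels place all cells in 1 group of neural progenitor cells and name no animals, so that cells are not replicates, no test over animals was possible, and each interval or standard deviation (SD) below covers counting or cell-to-cell spread only.

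A growing axon reads its surroundings through such receptors. Secreted semaphorins act on neuropilins, which bind the ligand, paired with plexins, which carry the signal into the cell. Slit proteins act on Robo receptors and mostly repel axons, whereas netrin acts on Dcc and can attract them. L1cam and Cntn2 are adhesion molecules of the immunoglobulin superfamily on which axons grow together in bundles. In the embryonic cortex, progenitors line the ventricle, excitatory neurons settle above them and send axons out of the cortex, and inhibitory neurons arrive from the ganglionic eminences.

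Cells were classed by 3 marker genes at 10 CPM or more. Neurod6, a transcription factor of postmitotic excitatory neurons and late intermediate progenitors, placed 16 cells. Dlx5, a transcription factor of inhibitory neurons and of the ganglionic eminences, placed 7 cells. Sox2, a transcription factor of neural stem cells, placed 18 cells. A further 4 cells had both Dlx5 and Sox2 and were kept apart, and 20 cells had none of the 3 markers. Cells just inside and just outside the bound had 61.8 and 1.15 CPM of Neurod6, 22.6 and 0.529 CPM of Dlx5, and 10.9 and 1.21 CPM of Sox2.

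Genes not used for the classes were read as a check of them. Dcx, a microtubule protein of young neurons, reached 10 CPM in 15 of 16 Neurod6 cells, 6 of 7 Dlx5 cells and 1 of 18 Sox2 cells, there as a single read in the cell of lowest depth. Tubb3, a tubulin of neurons, was less selective, at 10 CPM in 16 of 16 Neurod6, 7 of 7 Dlx5 and 12 of 18 Sox2 cells. Its median was 230 CPM in Sox2 cells, against 5620 CPM in Neurod6 cells. At least 3 of 15 neuronal maturation genes were at 10 CPM in 9 of 18 Sox2 cells, and at least 3 of 14 excitatory neuron genes in 8 of 18. The Sox2 class was thus not free of neuronal genes. Tbr1, a transcription factor of early excitatory neurons, reached 10 CPM in 14 of 16 Neurod6 cells and in no Dlx5 or Sox2 cell. Gad2, an enzyme that makes the inhibitory transmitter GABA, reached it in 0 of 16 Neurod6 cells, 6 of 7 Dlx5 cells and 1 of 18 Sox2 cells. Pax6, a transcription factor of cortical radial glia, reached it in 3 of 16 Neurod6 cells, 4 of 7 Dlx5 cells and 13 of 18 Sox2 cells. The label of neural progenitor cell thus covered cells with neuronal markers, and below the classes are called by their marker gene. Mki67, a gene of cycling cells, was at 10 CPM in 4 Neurod6 cells, and Eomes, a transcription factor of intermediate progenitors, in 10 Neurod6 cells. These 2 genes were chosen after their values were seen.

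Depth differed between cells more than between classes. Total counts had a median of 14609426 reads per cell and ran between 85338 and 32130629. Medians were 13317944 reads in Neurod6 cells, 13615302 in Dlx5 cells and 16242088 in Sox2 cells, with 5866, 5514 and 6405 genes detected. The cell with 85338 reads was a Sox2 cell in which 1 read equals 11.7 CPM, and 2 other cells had under 1000000 reads, 1 of them in the Sox2 class. Cell titles form 3 numbered sets that the labels do not explain, of 31, 13 and 21 cells. The first holds 11 of the 16 Neurod6 cells, 5 of the 7 Dlx5 cells and 7 of the 18 Sox2 cells, so values within sets are given where they differ.

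Promoter sequence is shown for L1cam and Cntn2, which were found together in Neurod6 cells, and for Robo1, which was not higher in Neurod6 than in Dlx5 cells. RefSeq promoter windows of build GRCm38.p6 ran from 250 bases before to 50 bases after a transcription start. They were used for 5 of the 7 genes and gave 8 windows, and none was used for Plxna4 or Dcc. Capitals mark the motif CAGATG, an E-box that proneural and NeuroD factors can bind, searched on both strands. TAATTA, a homeobox core that reads the same on both strands, was searched too. The lines give the L1cam window at chrX:73880741-73881040 on the minus strand, the Cntn2 window at chr1:132542891-132543190 on the minus strand and the Robo1 window at chr16:72662899-72663198 on the plus strand, each 5′ to 3′.
L1cam: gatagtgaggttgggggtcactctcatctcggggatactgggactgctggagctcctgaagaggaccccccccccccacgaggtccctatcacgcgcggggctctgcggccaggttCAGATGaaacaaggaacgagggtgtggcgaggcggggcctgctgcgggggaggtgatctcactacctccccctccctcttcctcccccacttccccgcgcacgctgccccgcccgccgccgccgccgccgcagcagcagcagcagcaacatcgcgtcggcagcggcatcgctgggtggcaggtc
Cntn2: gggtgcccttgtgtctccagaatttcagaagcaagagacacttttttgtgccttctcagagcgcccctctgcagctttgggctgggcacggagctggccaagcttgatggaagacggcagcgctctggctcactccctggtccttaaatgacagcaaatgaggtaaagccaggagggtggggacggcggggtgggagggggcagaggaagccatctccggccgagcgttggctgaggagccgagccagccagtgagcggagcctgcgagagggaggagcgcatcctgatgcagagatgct
Robo1: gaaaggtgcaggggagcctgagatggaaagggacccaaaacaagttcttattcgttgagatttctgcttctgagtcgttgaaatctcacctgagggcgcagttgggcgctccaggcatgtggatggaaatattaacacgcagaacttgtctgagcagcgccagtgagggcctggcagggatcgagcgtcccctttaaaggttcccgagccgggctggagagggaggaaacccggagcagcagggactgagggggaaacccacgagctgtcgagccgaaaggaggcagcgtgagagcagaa
CAGATG occurred once in the L1cam window, and in none of the windows of Nrp1, Cntn2, Robo1 and Robo2. Over all 32851 mouse windows, 17.2% held CAGATG and 5.29% held TAATTA, which was found in none of the 8 windows used. A match is a string of letters and says nothing of binding in these cells.

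All 7 genes were higher in Neurod6 cells than in Sox2 cells at the size used here, a difference of at least 1 in mean log2(CPM + 1). Of all 11971 genes, 13.2% were higher by that much and 17.6% were lower. The differences ran between 1.79 for Robo1 and 5.09 for Dcc, with a median of 3.85 over the 7 genes and of -0.07 over all genes. In Dlx5 cells against Sox2 cells, 4 of the 7 were higher, namely Robo1, Robo2, Nrp1 and Dcc, beside 14.4% of all genes, and none was lower, beside 21.8%. Between the neuronal classes, 5 of the 7 were higher in Neurod6 cells than in Dlx5 cells, beside 16.9% of all genes, and none was lower, beside 14.3%. Plxna4, L1cam and Cntn2 reached 10 CPM in at most 1 Dlx5 cell each, and Nrp1, Robo1, Robo2 and Dcc in 2 or 3. By class medians in place of means, 4 of the 7 were higher in Neurod6 than in Sox2 cells (Plxna4, L1cam, Cntn2 and Dcc), beside 9.11% of all genes. By the same medians, 2 were higher in Dlx5 than in Sox2 cells, beside 9.14% of all genes. Of the 7, 1, Robo1, was then lower in Neurod6 than in Dlx5 cells, beside 8.57% of all genes. Within the first title set, 7 were higher in Neurod6 than in Sox2 cells, 3 in Dlx5 than in Sox2 cells and 5 in Neurod6 than in Dlx5 cells. The shares of all genes there were 13%, 13.8% and 19.7% in the same order. The 5 genes included Nrp1 and left out Dcc, which differed by 0.65 within that set. Within the third set, 6 were higher in Neurod6 than in Sox2 cells, beside 27.2% of all genes. The other sets held under 3 cells of a class and gave no value.

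**Figure D1:**
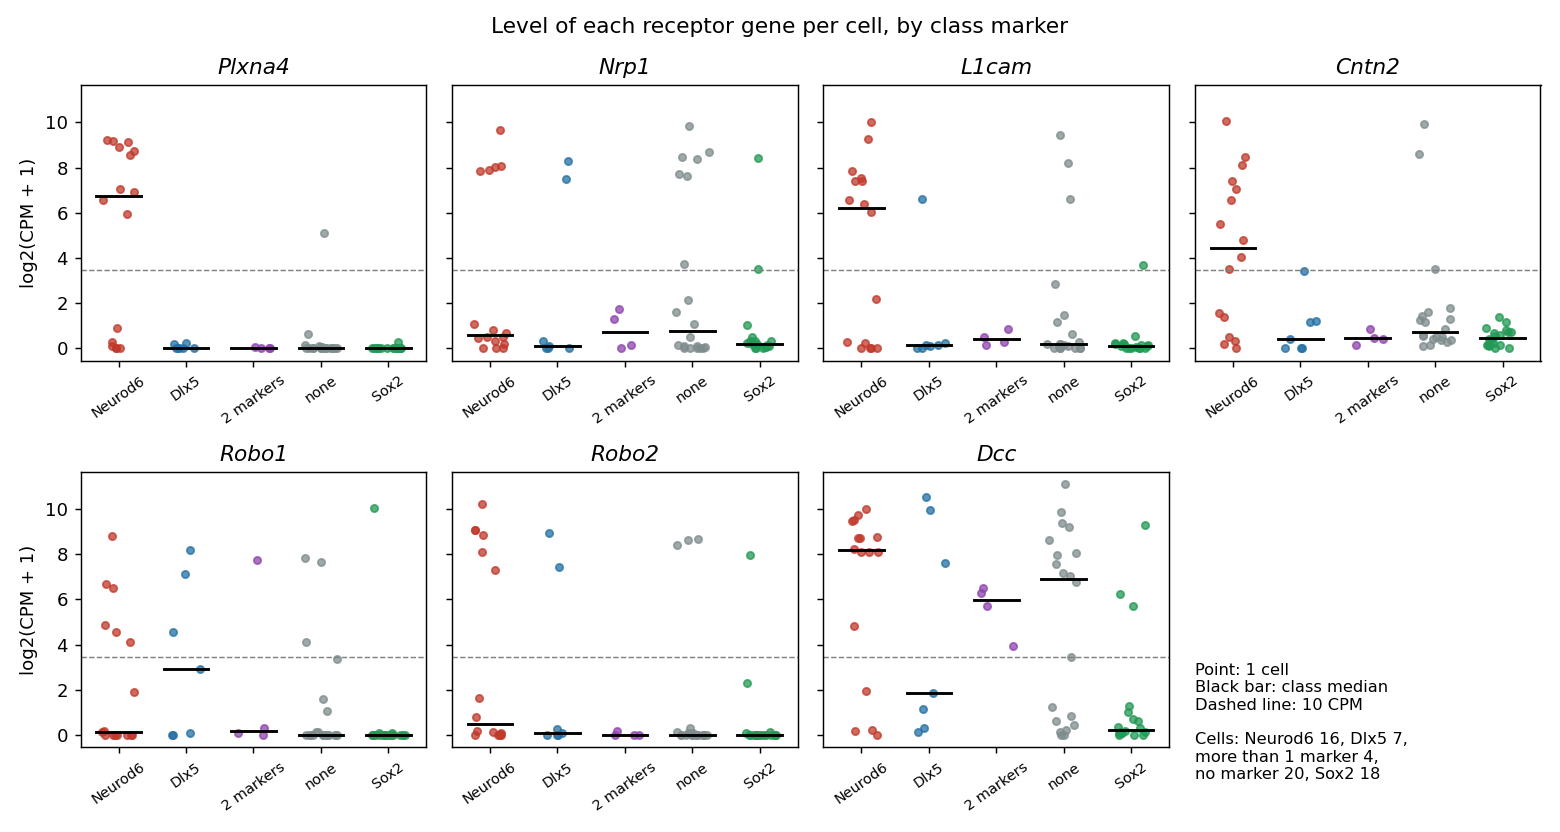
Level of each of the 7 receptor genes in each of 65 cells, as log2(CPM + 1) on the vertical axis, by class on the horizontal axis; a point is 1 cell, a black bar the class median and the dashed line 10 CPM. Plxna4 and Cntn2 have no Dlx5 or Sox2 cell above the line, while Cntn2, Nrp1, Robo1, L1cam and Dcc each have cells close to it.

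Plxna4, plexin A4, is a signalling receptor for semaphorins. It had between 0 and 593 CPM in the 16 Neurod6 cells, with a median of 107, against 0 to 0.163 CPM in the 7 Dlx5 cells and 0 to 0.215 CPM in the 18 Sox2 cells, both with a median of 0. It reached 10 CPM in 10 of 16 Neurod6 cells, or 62.5% (95% exact binomial interval 35.4 to 84.8), and those 10 cells had at least 61 CPM. In Dlx5 cells it did so in none, which allows a share of up to 41%, and in Sox2 cells in none, which allows up to 18.5% by the same interval. By their Plxna4 values the Neurod6 cells thus fell into 10 well above every Dlx5 and Sox2 cell and 6 under 1 CPM that overlapped with them. Whether the transcript was absent from those 6 cells or was not captured was not tested.

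The mean log2 level of Plxna4 was 5.08 higher in Neurod6 than in Sox2 cells (pooled SD over cells 2.85), the 30th highest difference of all 11971 genes. It was 5.04 higher in Neurod6 than in Dlx5 cells, and 0.04 higher in Dlx5 than in Sox2 cells. Outside the Neurod6 class, 1 cell reached 10 CPM, a cell without markers at 33.3 CPM. Among the 8 plexins in the table, chosen by family, Plxna2 was at 10 CPM in 11 of 16 Neurod6 cells, 4 of 7 Dlx5 cells and 3 of 18 Sox2 cells, and its difference between Neurod6 and Dlx5 cells was 0.28. Plxna1 went the other way, in 3 of 16 Neurod6 cells against 3 of 7 Dlx5 cells, with a log2 difference of -1.66. Plxnb2, a plexin for membrane-bound semaphorins, was lower in Neurod6 than in Sox2 cells, with a difference of -1.49.

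Nrp1, neuropilin-1, binds secreted semaphorins and vascular endothelial growth factor and passes the semaphorin signal through a plexin partner. It had 0 to 807 CPM in Neurod6 cells with a median of 0.496, 0 to 311 CPM in Dlx5 cells with a median of 0.0653, and 0 to 341 CPM in Sox2 cells with a median of 0.143. Its ranges overlapped in all 3 classes, with 10 CPM or more in 5 of 16 Neurod6 cells (31.2%, interval 11 to 58.7), 2 of 7 Dlx5 cells (28.6%, 3.67 to 71.0) and 2 of 18 Sox2 cells (11.1%, 1.38 to 34.7). Its mean log2 level was 2.01 higher in Neurod6 than in Sox2 cells (pooled SD 3.06), 1.45 higher in Dlx5 than in Sox2 cells (pooled SD 3.07) and 0.56 higher in Neurod6 than in Dlx5 cells (pooled SD 3.81). The difference of Dlx5 from Sox2 cells rests on 2 cells, at 311 and 180 CPM: by class medians it was -0.10, and with Pax6 in place of Sox2 as the progenitor marker it was -0.14. The change to Pax6 also altered the Dlx5 class, which lost the cell at 311 CPM because that cell had Pax6.

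Nrp1 was also found outside the 3 classes, at 10 CPM or more in 7 of the 20 cells without markers, at up to 927 CPM. Genes of mural and meningeal cells, which can carry Nrp1, were at 10 CPM for 3 or more of 7 measured in 2 of these 20 cells, and 1 of the 2 had Nrp1, at 417 CPM. All 5 Neurod6 cells with Nrp1 also had at least 1 A-type plexin at 10 CPM, and 4 of the 5 had Plxna4 itself. Of the 16 Nrp1 cells in the whole set, 11 had an A-type plexin. Over all 16 Neurod6 cells, with or without Nrp1, Plxna2 was at 10 CPM in 11 and Plxna4 in 10. Whether cells with Nrp1 had an A-type plexin more often than other cells was not tested. The other neuropilin, Nrp2, reached 10 CPM in 5 of 16 Neurod6 cells, 1 of 7 Dlx5 cells and 1 of 18 Sox2 cells, and its levels stayed at or under 62.2 CPM in Neurod6 cells.

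L1cam, the founding member of the L1 family of adhesion molecules, can form a complex with neuropilin-1. It had 0 to 1026 CPM in Neurod6 cells with a median of 73.8, 0 to 95.7 CPM in Dlx5 cells with a median of 0.0923, and 0 to 11.7 CPM in Sox2 cells with a median of 0.0745. Cells at 10 CPM or more were 9 of 16 Neurod6 cells (56.2%, interval 29.9 to 80.2), 1 of 7 Dlx5 cells (14.3%, 0.361 to 57.9) and 1 of 18 Sox2 cells (5.56%, 0.141 to 27.3). The Sox2 cell was the one of lowest depth, where 11.7 CPM is a single read, and the next Sox2 cell had 0.468 CPM. The 9 Neurod6 cells had at least 65.4 CPM and lay above every Sox2 cell and above 6 of the 7 Dlx5 cells.

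The mean log2 level of L1cam was 4.13 higher in Neurod6 than in Sox2 cells (pooled SD 2.79) and 3.42 higher in Neurod6 than in Dlx5 cells (pooled SD 3.24). Between Dlx5 and Sox2 cells it differed by 0.71, under the size called here, and by -0.29 without the third title set, which holds the Dlx5 cell at 95.7 CPM. Of the other L1 family genes, chosen by family, Nfasc was higher in Neurod6 cells than in both others, by 2.54 against Sox2 cells and 1.75 against Dlx5 cells. Chl1 reached 10 CPM in 1 of 16 Neurod6 cells, at 2143 CPM. Nrcam reached it in 6 of 16 Neurod6 cells, 1 of 7 Dlx5 cells and 6 of 18 Sox2 cells, a difference of 0.11 between Neurod6 and Sox2 cells and of 1.39 between Neurod6 and Dlx5 cells.

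Cntn2, contactin-2 or TAG-1, is anchored to the membrane by a lipid and marks early axons that leave the cortex. It had 0 to 1068 CPM in Neurod6 cells with a median of 21.2, 0 to 9.76 CPM in Dlx5 cells with a median of 0.326, and 0 to 1.61 CPM in Sox2 cells with a median of 0.380. It reached 10 CPM in 10 of 16 Neurod6 cells (62.5%, interval 35.4 to 84.8), in 0 of 7 Dlx5 cells and in 0 of 18 Sox2 cells. These 10 Neurod6 cells spread widely, from 10.2 CPM upward, and 6 of them had 50 CPM or more. Its mean log2 level was 3.85 higher in Neurod6 than in Sox2 cells (pooled SD 2.41), 3.45 higher in Neurod6 than in Dlx5 cells (pooled SD 2.55) and 0.40 higher in Dlx5 than in Sox2 cells. That last difference was -0.056 by class medians and -1.09 with Pax6 in place of Sox2 as the progenitor marker. The change to Pax6 also altered the Dlx5 class, which lost the cell at 9.76 CPM because that cell had Pax6.

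Cntn2 differed from Plxna4 at the low end. At least 1 read of Cntn2 was present in 88.9% of Sox2 cells, though never above 1.61 CPM, whereas at least 1 read of Plxna4 was present in 5.56% of Sox2 cells. Cntn1 and Cntn3, the other contactins in the table, did not follow Cntn2. Cntn1 reached 10 CPM in 1 of 16 Neurod6, 1 of 7 Dlx5 and 1 of 18 Sox2 cells, and Cntn3 in none of these cells.

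Robo1 and Robo2 are receptors for Slit proteins. Robo1 had 0 to 448 CPM in Neurod6 cells with a median of 0.107, 0 to 291 CPM in Dlx5 cells with a median of 6.53, and 0 to 1078 CPM in Sox2 cells with a median of 0. It reached 10 CPM in 6 of 16 Neurod6 cells (37.5%, interval 15.2 to 64.6), 3 of 7 Dlx5 cells (42.9%, 9.90 to 81.6) and 1 of 18 Sox2 cells. That Sox2 cell was again the one of lowest depth, with 92 Robo1 reads among its 85338, and the next Sox2 cell had 0.0658 CPM.

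Robo1 was the one gene of the 7 whose mean log2 level was lower in Neurod6 than in Dlx5 cells, with a difference of -0.91 (pooled SD 3.28), which is within the size called here. The difference was -2.77 by class medians, -1.45 with class markers at 50 CPM and between -1.24 and -1.03 under 5 more alternatives, all past that size, but 0.11 without the third title set. Robo1 was 1.79 higher in Neurod6 than in Sox2 cells and 2.70 higher in Dlx5 than in Sox2 cells. Without the 3 cells under 1000000 reads, these became 2.35 for Neurod6 and 3.26 for Dlx5 cells against Sox2 cells. Without the first title set, the difference of Neurod6 from Sox2 cells was -0.010, with 5 Neurod6 cells and the shallow Sox2 cell left in. Within the first title set alone it was 3.01, and there Robo1 differed by 0.08 between Neurod6 and Dlx5 cells.

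Robo2 had 0 to 1193 CPM in Neurod6 cells with a median of 0.422, 0 to 497 CPM in Dlx5 cells with a median of 0.0653, and 0 to 247 CPM in Sox2 cells with a median of 0. It reached 10 CPM in 6 of 16 Neurod6 cells, 2 of 7 Dlx5 cells and 1 of 18 Sox2 cells. The 6 Neurod6 cells had at least 159 CPM and the next had 2.11 CPM, so the measured Robo2 levels in Neurod6 cells were either high or near 0. Whether low levels reflect absence or missed capture of the transcript was not tested. Its mean log2 level was 2.89 higher in Neurod6 than in Sox2 cells (pooled SD 3.33), 1.81 higher in Dlx5 than in Sox2 cells (pooled SD 3.13) and 1.08 higher in Neurod6 than in Dlx5 cells (pooled SD 4.15). All 6 Neurod6 cells with Robo2 belonged to the first title set, and without that set the difference from Sox2 cells was 0.36. Within the first title set, the difference of Dlx5 from Sox2 cells was 0.34.

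At least 1 of Robo1 and Robo2 reached 10 CPM in 10 of 16 Neurod6 cells, with Robo1 alone in 4, Robo2 alone in 4 and both in 2. In Dlx5 cells, 3 of 7 had at least 1 and 2 had both, and in Sox2 cells 2 of 18 had 1 and none had both. Robo3, the remaining Robo in the table, reached 10 CPM in 5 of 16 Neurod6 cells, 0 of 7 Dlx5 cells and 3 of 18 Sox2 cells.

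Dcc, the netrin receptor deleted in colorectal carcinoma, was the gene of the 7 found in most cells, at 10 CPM or more in 34 of 65. It had 0 to 1043 CPM in Neurod6 cells with a median of 291, 0.0923 to 1496 CPM in Dlx5 cells with a median of 2.61, and 0 to 633 CPM in Sox2 cells with a median of 0.167. It reached 10 CPM in 12 of 16 Neurod6 cells (75%, interval 47.6 to 92.7), 3 of 7 Dlx5 cells (42.9%, 9.90 to 81.6) and 3 of 18 Sox2 cells (16.7%, 3.58 to 41.4). It was also at 10 CPM in all 4 cells with both Dlx5 and Sox2, at 90.6, 77.0, 50.8 and 14.2 CPM, and in 12 of the 20 cells without markers. No other gene of the 7 reached 10 CPM in more than 1 of those 4 cells.

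The mean log2 level of Dcc was 5.09 higher in Neurod6 than in Sox2 cells (pooled SD 3.27), the 29th highest difference of all genes, and 3.06 higher in Dlx5 than in Sox2 cells (pooled SD 3.82). Between Neurod6 and Dlx5 cells it differed by 2.03 (pooled SD 4.24), but by 0.65 within the first title set, where 3 of 5 Dlx5 cells had it. The highest Dlx5 cell, at 1496 CPM, lay above all 16 Neurod6 cells, and the next, at 1007 CPM, above 15 of the 16. Neo1, the receptor closest to Dcc in sequence, was at 10 CPM in 7 of 16 Neurod6 cells, 1 of 7 Dlx5 cells and 2 of 18 Sox2 cells. The Unc5 receptors, which turn the netrin response to repulsion, were scarce in Neurod6 and Dlx5 cells. Unc5b and Unc5c reached 10 CPM in no Neurod6 or Dlx5 cell, and Unc5d in 3 of 16 Neurod6 cells and no Dlx5 cell. In Sox2 cells, Unc5b reached it in 1 of 18, at 172.5 CPM, and Unc5c and Unc5d in none. Unc5c averaged 21.8 CPM over all cells, but its highest value within the 3 classes was 0.089 CPM. Its reads thus lay mostly in cells outside these classes.

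**Figure D2:**
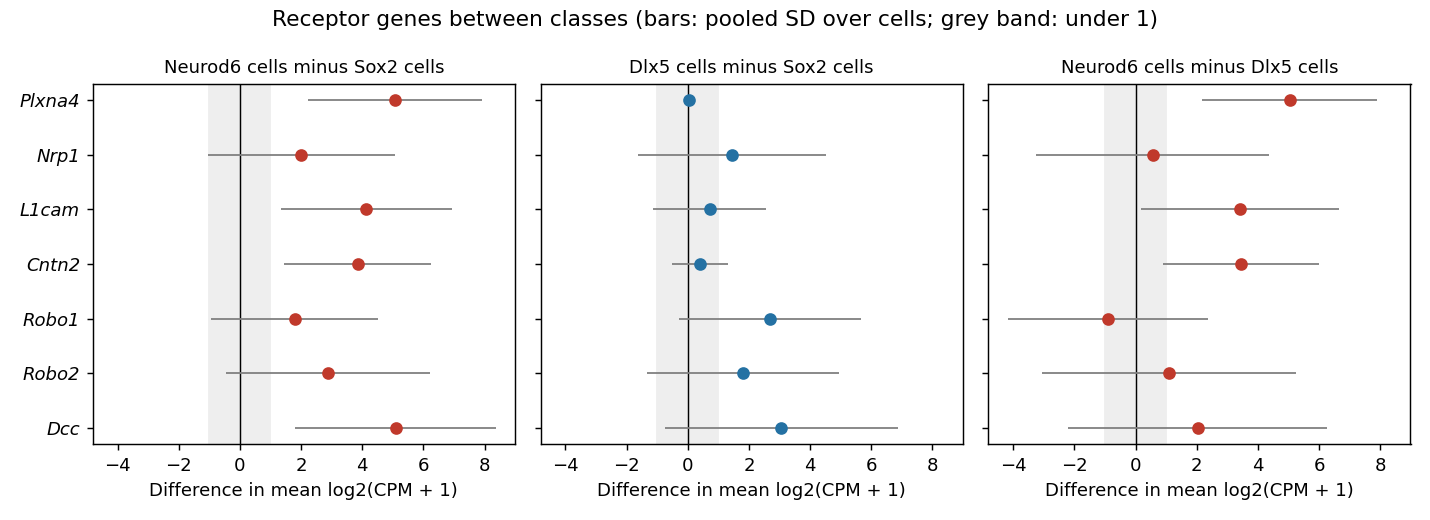
Difference of each receptor gene in mean log2(CPM + 1) between classes, one panel per comparison; a point is the difference, its bar extends 1 pooled SD over cells on each side, and the grey band marks differences under 1. All 7 points lie right of the band for Neurod6 minus Sox2 cells, and Plxna4, L1cam and Cntn2 lie in the band for Dlx5 minus Sox2 cells.

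Because longer transcripts yield more reads, levels were set side by side between genes only after division by merged exon length in kb. In Neurod6 cells, mean CPM per kb was 34.9 for Dcc, 31.3 for both Nrp1 and L1cam, 22.2 for Robo2, 19.1 for Cntn2, 16.6 for Plxna4 and 5.87 for Robo1. In Neurod6 cells at 10 CPM or more, the median was 71.3 CPM per kb for Nrp1 (5 cells) and 7.80 for Robo1 (6 cells). Nrp1 and Robo1 were each carried by few Neurod6 cells, with the higher median per kb for Nrp1. The 6 Robo1 cells spread from 16.3 to 448 CPM, and 3 of them had 50 CPM or more.

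Shares were compared at equal depth by drawing 1000000 reads from each cell, which left out the 3 shallower cells, 2 of them Sox2 cells. Shares at 10 CPM were then 62.5% for Plxna4, 56.2% for L1cam, 56.2% for Cntn2, 31.2% for Nrp1, 37.5% for Robo1 and for Robo2, and 75% for Dcc in Neurod6 cells. In the 16 remaining Sox2 cells they were 0% for Plxna4, L1cam, Cntn2 and Robo1, 6.25% for Robo2, 12.5% for Nrp1 and 18.8% for Dcc. In Dlx5 cells the share of Cntn2 was 14.3% after the draw, against 0% without it, and the other 6 shares stayed as given above.

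Neurod6 cells carried several of the 7 genes at once. A Neurod6 cell had a median of 4 of the 7 at 10 CPM (range 0 to 6), a Dlx5 cell 2 (0 to 3) and a Sox2 cell 0 (0 to 2). At least 3 were found in 12 of 16 Neurod6 cells, 2 of 7 Dlx5 cells and 0 of 18 Sox2 cells, and no cell had all 7. The 2 Neurod6 cells with 6 genes differed in 1 of them: 1 had Nrp1 and no Robo1, and the other Robo1 and no Nrp1. Of the 7 Dlx5 cells, 2 had Robo1 and Robo2 with another gene, Dcc in 1 and L1cam in the other, and 2 had none.

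**Figure D3:**
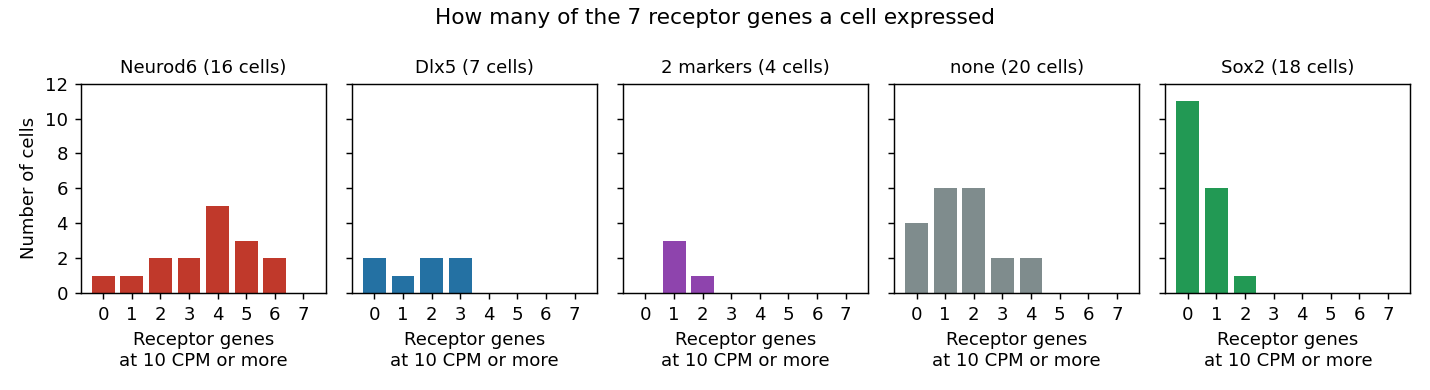
Number of cells (vertical axis) by how many of the 7 receptor genes they had at 10 CPM or more (horizontal axis), one panel per class. Neurod6 cells centre on 4 genes, Dlx5 cells run between 0 and 3, and 11 of 18 Sox2 cells have none.

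Plxna4, L1cam and Cntn2 were found together in 6 cells, all of them in the Neurod6 class, and at least 1 of the 3 was found in 13 of 16 Neurod6 cells, 1 of 7 Dlx5 cells and 1 of 18 Sox2 cells. The Sox2 cell was the one of lowest depth, with a single read of L1cam. These 3 were also the genes at 10 CPM in at most 1 Dlx5 cell each, so this contrast follows in part from which genes were grouped. Of the 11 cells with Plxna4, 9 had Cntn2, 9 had Dcc and 8 had L1cam. Of the 13 cells with Cntn2, 12 had Dcc, which is 35.3% of the 34 Dcc cells. Where a cell had just 1 of the 7 genes, as 17 cells did, it was Dcc in 9, Nrp1 in 4, L1cam in 2 and Robo2 in 2, and never Plxna4, Cntn2 or Robo1.

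Over all 65 cells, Spearman's rho was positive for each of the 21 pairs of these genes, between 0.0483 for Nrp1 with Cntn2 and 0.494 for Plxna4 with Robo2, with a median of 0.236. It was positive in each of the 3 title sets for 13 pairs. Within the 16 Neurod6 cells, the highest was 0.752 for Plxna4 with Cntn2, followed by 0.597 for L1cam with Cntn2 and 0.588 for Cntn2 with Dcc, and 18 of 21 pairs were positive. L1cam with Robo1 was at -0.337 there. Cells share class, library and depth, and these values describe the 65 cells and are weak in such sparse counts.

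**Figure D4:**
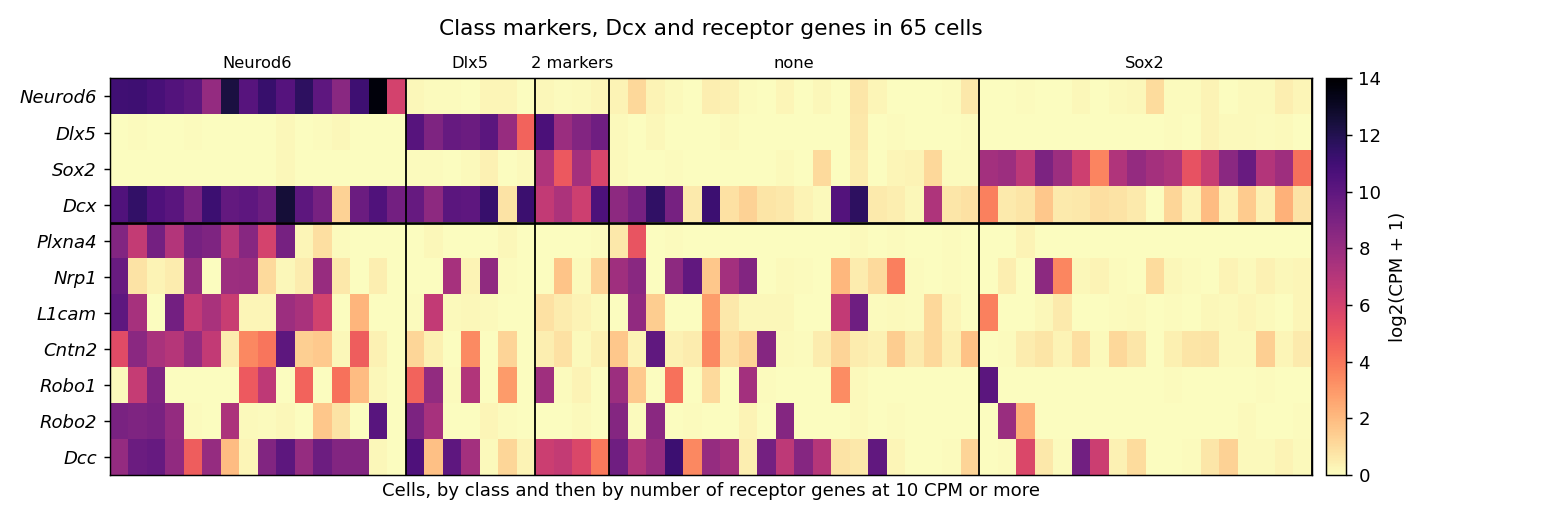
Levels as log2(CPM + 1), shown by colour, of Neurod6, Dlx5, Sox2, Dcx and the 7 receptor genes (rows) in 65 cells (columns), ordered by class and within a class by how many receptor genes reached 10 CPM. Plxna4, L1cam, Cntn2 and Dcc reached 10 CPM in 9 to 12 of the 16 Neurod6 columns and Nrp1, Robo1 and Robo2 in 5 or 6. Cells not far above 10 CPM lie toward the pale end of the scale. All 7 rows are pale in most Sox2 columns.

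Within the Neurod6 class, values were split by Eomes, at 10 CPM in 10 of the 16 cells. In the 6 cells without Eomes, Dcc was at 10 CPM in 6, Plxna4, L1cam and Cntn2 in 5 each, Robo1 and Robo2 in 2 each and Nrp1 in 1. In the 10 cells with Eomes, Dcc was at 10 CPM in 6, Plxna4 and Cntn2 in 5 each and L1cam, Nrp1, Robo1 and Robo2 in 4 each. Reln, a marker of Cajal-Retzius cells, was at 10 CPM in 3 of the 6 cells without Eomes and in 0 of the 10 with it, and its part in this split was not tested. The median number of the 7 genes was 4.5 without and 3.5 with Eomes, and the ranges overlapped. The 4 Neurod6 cells with Mki67 had a median of 2.5 genes, with Dcc in 3, Cntn2, Nrp1 and Robo1 in 2 each, Plxna4 and L1cam in 1 each and Robo2 in none, against 4 genes in the 12 cells without Mki67, where Nrp1 was in 3 and Robo1 in 4. Without those 4 cells the difference of Neurod6 from Sox2 cells was 5.98 for Plxna4, 4.91 for L1cam, 4.46 for Cntn2 and 3.83 for Robo2, each above the value over all cells, and 5.01 for Dcc, 1.67 for Robo1 and 1.59 for Nrp1, each below it.

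Cells without any of the 3 markers were split by Dcx in the same way. The 8 with Dcx had a median of 2.5 of the 7 genes and the 12 without Dcx a median of 1. Plxna4, L1cam or Cntn2 was found in 5 of the 8 cells with Dcx and in 1 of the 12 without.

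Markers of other cell types were read in the same cells. Cajal-Retzius cells are the early neurons of the cortical surface that make reelin. At least 3 of their 10 measured markers were at 10 CPM in 3 of 16 Neurod6 cells, 0 of 7 Dlx5 cells and 1 of 18 Sox2 cells. The same held for 5 of the 20 cells with none of the class markers. The summed level of the Cajal-Retzius markers ran between 0 and 10323 CPM in Neurod6 cells, between 0.130 and 154 CPM in Dlx5 cells and between 0 and 390 CPM in Sox2 cells. A Neurod6 cell of the first title set had 7134 CPM of Reln and 8 of the 10 markers, with 620 CPM of L1cam, 304 CPM of Dcc, 278 CPM of Robo2, 132 CPM of Plxna4 and 131 CPM of Cntn2. Without the cells that had 3 or more such markers, all 7 genes were still higher in Neurod6 than in Sox2 cells by 1 or more, beside 13.8% of all genes. The differences were 5.14 for Dcc, 4.54 for Plxna4, 3.84 for L1cam, 3.37 for Cntn2, 2.34 for Robo2, 1.92 for Nrp1 and 1.43 for Robo1. Robo2 no longer reached 1 between Neurod6 and Dlx5 cells, at 0.56. Microglial markers summed to at most 15.3 CPM in Neurod6 cells, 6.96 CPM in Dlx5 cells and 93.7 CPM in Sox2 cells. The 1 endothelial marker measured was at 0 in all Neurod6 and Dlx5 cells. Erythroid genes, 6 of them measured, had a median summed level of 36.7 CPM in Neurod6 cells (0 to 1090), 48.1 CPM in Dlx5 cells (0 to 404) and 315 CPM in Sox2 cells (0 to 5613), with 3 or more at 10 CPM in 3, 1 and 5 cells, and their part in the differences between classes was not tested.

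Partners of these receptors were read in the same cells. Sema3a, a ligand of neuropilin-1, reached 10 CPM in 0 of 16 Neurod6 cells, 0 of 7 Dlx5 cells and 2 of 18 Sox2 cells, and in 5 of 65 cells in all. Slit1 reached it in 1 Neurod6 cell, 1 Dlx5 cell and no Sox2 cell, and Slit2 in 3 of 16 Neurod6 cells, 0 of 7 Dlx5 cells and 3 of 18 Sox2 cells. Ntn1, which encodes netrin-1, reached it in 0 of 16 Neurod6 cells, 1 of 7 Dlx5 cells and 1 of 18 Sox2 cells. Each of the 7 receptors thus reached 10 CPM in more Neurod6 cells than any of these 4 ligands did. Sema3c was not analysed here.

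In a wider list of guidance receptors without the 7 genes, 14 of 28 measured were higher by 1 or more in Neurod6 than in Sox2 cells and 1 was lower, or 50% and 3.57% beside 13.2% and 17.6% of all genes, with a median difference of 0.94 beside -0.07 over all genes. Against Dlx5 cells, 10 of the 28 were higher in Neurod6 cells and 6 lower, or 35.7% and 21.4%, beside 16.9% and 14.3% of all genes. Epha3, an ephrin receptor, was at 10 CPM in 11 of 16 Neurod6 cells, 0 of 7 Dlx5 cells and 3 of 18 Sox2 cells, higher by 4.25 against Sox2 cells and by 5.38 against Dlx5 cells. Plxna2 was higher in both neuronal classes, by 4.0 in Neurod6 and 3.72 in Dlx5 cells against Sox2 cells. In Dlx5 against Sox2 cells, 6 of the 28 were higher and 5 lower, or 21.4% and 17.9%, beside 14.4% and 21.8% of all genes. Epha7 and Ephb2, ephrin receptors too, were higher in Dlx5 than in Sox2 cells, by 3.33 and 2.55, and lower in Neurod6 than in Dlx5 cells, with differences of -1.68 and -2.01. Flrt3, a transmembrane protein that can bind Robo1, was higher in Neurod6 than in Dlx5 cells by 3.79.

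Of 22 further neuronal adhesion molecules, 8 were higher and 2 lower in Neurod6 than in Sox2 cells, 2 higher and 4 lower in Dlx5 than in Sox2 cells, and 11 higher and 1 lower in Neurod6 than in Dlx5 cells. As shares these are 36.4% and 9.09% beside 13.2% and 17.6% of all genes, 9.09% and 18.2% beside 14.4% and 21.8%, and 50% and 4.55% beside 16.9% and 14.3%. Dlx5 minus Sox2 cells thus gave fewer calls among them than among all genes in both directions. Their median differences were 0.67, -0.33 and 0.96 in that order of comparisons. Cntnap2, a partner of Cntn2 on myelinated axons, was at 10 CPM in 13 of 16 Neurod6 cells, 1 of 7 Dlx5 cells and 11 of 18 Sox2 cells, so it was higher in Neurod6 than in Dlx5 cells by 4.64 while the difference of Dlx5 from Sox2 cells was -2.68. Cadm1 and Alcam, adhesion molecules of the immunoglobulin superfamily as L1cam and Cntn2 are, went the other way: they were lower in Neurod6 than in Sox2 cells, with differences of -3.75 and -2.36. Ncam1 was higher in both neuronal classes than in Sox2 cells, by 2.18 in Neurod6 and 1.27 in Dlx5 cells.

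Of 31 measured effectors of the growth cone, 17 were higher and 4 lower in Neurod6 than in Sox2 cells, and 11 higher and 4 lower in Dlx5 than in Sox2 cells, with medians of 1.09 and 0.61. As shares these are 54.8% and 12.9% beside 13.2% and 17.6% of all genes, and 35.5% and 12.9% beside 14.4% and 21.8%. Against Dlx5 cells, 10 of the 31 were higher in Neurod6 cells and 3 lower, with a median of 0.23. Those shares are 32.3% and 9.68%, beside 16.9% and 14.3% of all genes. Dpysl3 and Crmp1, collapsin response mediators that act downstream of semaphorins, were higher in both neuronal classes: Dpysl3 by 6.48 in Neurod6 and 6.51 in Dlx5 cells, and Crmp1 by 5.44 in Neurod6 and 4.72 in Dlx5 cells. Rnd2, a small GTPase of migrating cortical neurons, was higher by 5.66 in Neurod6 than in Sox2 cells and by 4.66 in Neurod6 than in Dlx5 cells. Gap43, a growth cone protein, was higher by 5.18 and 2.85 in the same comparisons. Pak3, a kinase that acts on the actin skeleton, was lower in Neurod6 than in Dlx5 cells, with a difference of -2.10. Of 23 guidance ligands, 5 were higher and 3 lower in Neurod6 than in Sox2 cells, and 5 higher and 5 lower in Dlx5 than in Sox2 cells, with medians of 0.03 and 0.38. As shares these are 21.7% and 13% beside 13.2% and 17.6% of all genes, and 21.7% and 21.7% beside 14.4% and 21.8%, so the lower calls were no more frequent than among all genes. Efnb2, an ephrin, was the most widespread of those named, at 10 CPM in 15 of 16 Neurod6 cells, 6 of 7 Dlx5 cells and 13 of 18 Sox2 cells, and was higher in Neurod6 than in Sox2 cells by 2.81.

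**Figure D5:**
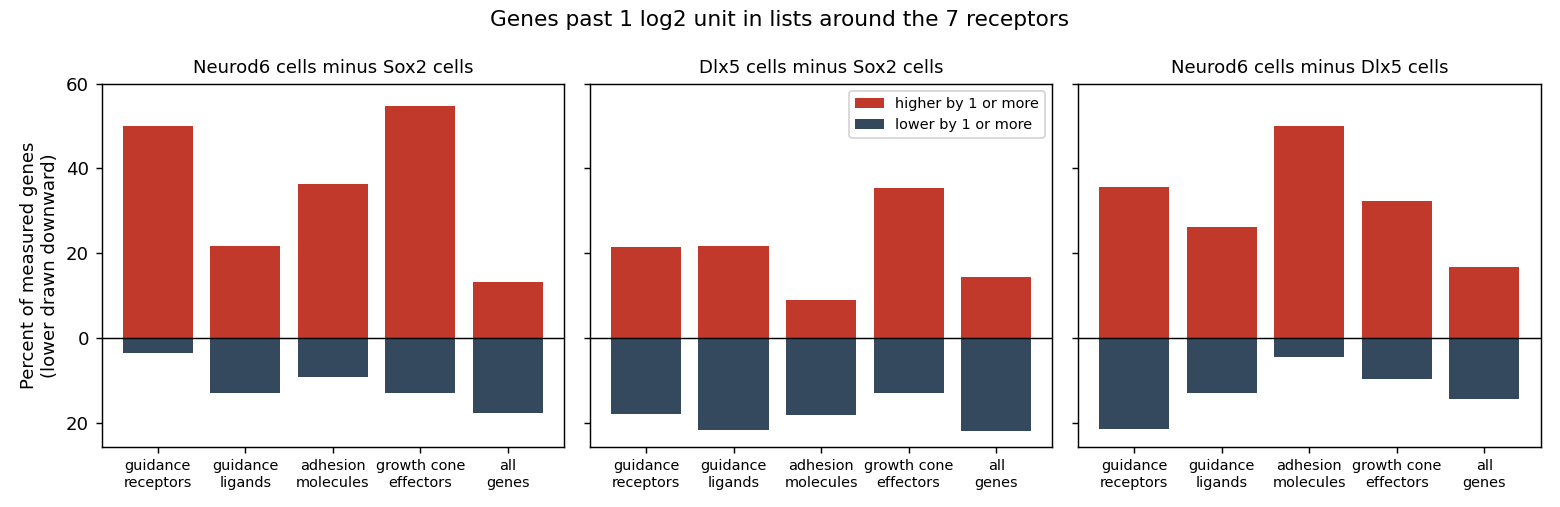
Share of measured genes (vertical axis, percent) that were higher (red, upward) or lower (dark, downward) by 1 or more in mean log2(CPM + 1), for 4 gene lists around the 7 receptors and for all genes, one panel per comparison. Guidance receptors reach 50% higher and growth cone effectors 54.8% in Neurod6 minus Sox2 cells, beside 13.2% of all genes, and adhesion molecules reach 50% higher in Neurod6 minus Dlx5 cells.

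Genes whose levels were ranked most like each receptor over the 65 cells, among the 8377 genes that averaged at least 10 CPM and had a positive rho in each title set, were taken up to 5 per receptor by Spearman's rho. For Plxna4 they were Srrm4 (0.600), Slc17a6 (0.595), Cacna2d1 (0.594), Wnt7b (0.590) and Tubb3 (0.590). For Nrp1 they were Sec11a (0.488), Id2, Tyw3, Gm19757 and Srrm4 (0.472). For L1cam they were Cdk5r1 (0.689), Rtn1, Nnat, Rufy3 and Tuba1a (0.510). For Cntn2 they were Kif21b (0.571), Nxph4, Cnr1, Dner and Rab3d (0.520). For Robo1 they were Snrpn (0.584), Rnf165, Dip2b, Nfasc and Stk38 (0.480). For Robo2 they were Dchs1 (0.575), Cep170, Plxna4, Elavl3 and Suv420h2 (0.481). For Dcc they included Gstm7 (0.547), Mcin, Srrm4 and Zbtb18 (0.517). Srrm4, a splicing factor of neurons, was named for 3 of the 7 receptors and had 10 CPM or more in all 11 Plxna4 cells, 13 of 16 Nrp1 cells and 25 of 34 Dcc cells, being at that level in 32 of 65 cells. Slc17a6, which loads glutamate into synaptic vesicles, was at 10 CPM in 9 of the 11 Plxna4 cells.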

How the data were processed

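Libraries of single cells were made with a full-length cDNA kit without molecular identifiers or strand, per the labels' protocols. The authors deposited a table of raw read counts, whole numbers for 11971 genes by 65 cells. The submitters' processing notes list TopHat2, HTSeq and mm9 with no version or role, and the sources used here do not give the annotation. Near-identical genes and antisense overlaps cannot be told apart in such counts.

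Counts were divided by each cell's total to give CPM (Python 3.11.15, pandas 2.3.3, scipy 1.17.1), and differences were taken in mean log2(CPM + 1) over all genes without a filter on low values. Since the labels give 1 group and no animals, no p-value was computed, and a difference of 1 or more was called by size. Shares have exact Clopper-Pearson intervals at 95%, which cover counting error only, since reads without molecular identifiers are not independent molecules. Doublets were not called, and the 4 cells with both Dlx5 and Sox2 were kept out of the classes.

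The 7 genes and all lists were chosen with earlier results of these data known. Named genes were the 7, the class markers and their check genes, ligand partners, up to 4 genes per list, comparison and direction past a difference of 1 at mean 10 CPM, and 5 genes of highest Spearman's rho per receptor; family relatives, Eomes, Mki67 and Reln were added later. One gene that the rule named is not reported here. Alternatives included size factors from scran 1.30.0 in R 4.3.3, a pseudocount of 10, other class markers or bounds, medians, and leaving out shallow cells or each title set. Promoter sequences are RefSeq windows on GRCm38.p6, and exon lengths come from a GRCm38 annotation, whereas the counts name mm9.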

Additional observations from a re-analysis of the deposited data

Results flagged for a closer look

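In 14 sets of one gene in one class of 4 to 10 cells, a cell was singled out where its gap to the next cell was a large part of the class's whole range by Dixon's criterion. Chance meets it in about 1 of 20 sets of normally distributed values, a rate that does not apply to sets of mostly zeros with a few high cells such as these. It was met in 5 sets. L1cam stood at 95.7 CPM in 1 Dlx5 cell, where the next of the 7 had 0.159 CPM. Cntn2 stood at 9.76 CPM in 1 Dlx5 cell, where the next had 1.30 CPM. Among the 4 cells with both Dlx5 and Sox2, Robo1 stood at 216 CPM in 1 cell, where the next had 0.224 CPM. In the same 4 cells, Plxna4 at 0.0486 CPM and Robo2 at 0.112 CPM stood in 1 cell each, where the others had 0. Both are a single read, so that the criterion is met whatever the value. Without the third title set, which holds that L1cam cell, no Dlx5 cell had L1cam at 10 CPM.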

How the results depend on the processing

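Of the differences of a receptor gene that were 1 or more, 279 of 302 values under an alternative were still 1 or more with the same sign, and 3 changed sign. Some of the 279 could not change. A limit to genes of mean 10 CPM or more left classes and levels as they were. Leaving out shallow cells touched no Neurod6 or Dlx5 cell, and Tbr1 as the excitatory marker changed no Dlx5 or Sox2 cell. The sign changed for Nrp1 in Dlx5 minus Sox2 cells, to -0.10 by class medians and to -0.14 with Pax6 as the progenitor marker, and for Robo1 in Neurod6 minus Sox2 cells, to -0.010 without the first title set. The count of receptor genes higher by 1 or more in Dlx5 than in Sox2 cells was 2 in place of 4 by medians and with Pax6, beside 9.14% and 12.7% of all genes. That in Neurod6 than in Sox2 cells was 4 in place of 7 by medians, beside 9.11% of all genes. The count lower in Neurod6 than in Dlx5 cells was 1 in place of 0 with markers at 50 CPM, with Tbr1 as the excitatory marker, by medians, with neuronal classes limited to Dcx cells, without Neurod6 cells with Mki67, without cells with 3 or more Cajal-Retzius genes and without the second title set. Under these settings the share of all genes that were lower ran between 8.57% by medians and 17.7% with markers at 50 CPM. A count of 1 of 7 lies within that range. Leaving out the Mki67 and the Cajal-Retzius cells was chosen after seeing the data. Cntn2 in Dlx5 minus progenitor cells was -1.09 with Pax6 as the marker, against 0.40 with Sox2. Pax6 as the marker changed both classes. Dlx5 cells with Pax6 left the Dlx5 class and cells with Dlx5 and Sox2 but without Pax6 entered it, which made 6 cells. The progenitor class became 21 cells and took in a cell without markers that had 987 CPM of Cntn2 and 2915 CPM of Dcx. The causes were not tested. Plxna4 in Neurod6 minus Sox2 cells ran between 2.99 and 6.75 over 20 alternatives, and Dcc between 3.29 and 7.97. No value was had for Dlx5 cells without the first title set, which leaves 2 of them. No paired analysis was possible because the labels give 1 group. Depth limits the cell with 85338 reads, where 1 read passes 10 CPM, and 7 Dlx5 cells leave an upper limit of 41% on a share of 0.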
